A study of Danio rerio with 24 samples.

Results

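The genes described here are 107 of the 31953 genes in a zebrafish skeletal muscle count table, chosen by the start of their gene names. The name starts were cfap, dnah, dnai, ift, tekt, rsph, foxj1, spag, sycp, syce, tdrd, tex, ddx4, dazl, piwil, dmc1 and spo11. By role they fell into 17 axonemal dyneins, 37 other axoneme genes, 2 foxj1 transcription factors, 12 intraflagellar transport genes, 10 meiosis genes, 12 germ-line and piRNA genes, and 17 genes that the name starts caught without such a role. RNA was sequenced from the muscle of adult fish at 4 months of age. Untrained fish with the actc1b:PGC1alpha transgene (untrained_TG) carry the coactivator PGC1alpha behind the promoter of a muscle actin gene. Trained wild-type fish (trained_WT) had gone through chronic exercise, and untrained wild-type fish (untrained_WT) had neither the transgene nor the training. Each group had 7 libraries with a count column. The labels do not say whether a library came from 1 fish or from pooled fish, nor how many transgenic lines were used, so the p-values measure the spread between these libraries. The question was how much of the variation of these genes lay between the 3 groups and how much lay among libraries of the same group.

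Motile cilia beat through axonemal dyneins, large motors fixed in rows on the outer microtubule doublets, and through radial spokes and a central pair that coordinate them. Foxj1 factors switch on the genes of motile cilia, and intraflagellar transport carries material along both motile and immotile cilia. In meiosis the synaptonemal complex zips paired chromosomes together after Spo11 has cut the DNA, and in the germ line Piwi proteins with tudor-domain partners and the helicase Ddx4 (Vasa) silence transposons through piRNAs. Muscle fibres carry no motile cilia, and meiosis takes place in gonads.

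Libraries held between 42808402 and 79184764 counts over genes, and the 107 genes together took between 0.0293% and 0.130% of them. The zebrafish gene ppargc1a itself had a log2 fold change of -0.74 ± 0.43 (SE) in untrained_TG over untrained_WT (edgeR adjusted p = 0.168), and the labels do not say which species' sequence the transgene holds. A level is given in CPM, counts scaled to 1 common library size with TMM factors, and is compared across libraries and not between genes, because the count table gives no gene lengths. A count of 0 in 1 library allows a level of up to 0.0379 to 0.0701 CPM, counting error only, depending on its depth. The 23 skeletal muscle markers were all detected, and summed to between 40746 and 51386 CPM in untrained_TG, between 183412 and 311867 CPM in trained_WT and between 89072 and 351307 CPM in untrained_WT. The part of this difference in the results below was not tested.

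Untrained_WT replicates 3 and 7 stood apart from the other 5 libraries of their group in most of these genes. They were also low in muscle marker sum for their group, at 164183 CPM in replicate 3 and 89072 CPM in replicate 7, against 199515 to 351307 CPM in the other 5. Results that rest on the untrained_WT group are therefore given with and without these 2 libraries, a choice made with earlier results of the same data known.

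Of the 107 genes, 97 passed the count filter, which asked for about 0.134 CPM in at least 7 libraries. The 10 others were tested nowhere: 1 of the 2 genes named dnah11 (ENSDARG00000077384) and both named cfap100, together with cfap73, spag16, tekt2, tdrd5, tex26, tex2l and ddx47. No library held a count for ddx47, which allows a level of up to 0.00196 CPM over the 21 libraries. Among the 97, 27 passed only because of the untrained_WT libraries, 7 only because of trained_WT and 2 only because of untrained_TG. A gene was counted for a group when fewer than 7 libraries outside that group reached the filter level, so 1 gene can count for several groups. The filter thus favours genes that are high in some group, and the counts below describe the genes tested and not all 107.

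Most of the variation of these genes lay within groups, as it did over all genes tested. The share of a gene's variation that lay between the 3 group means, on the log2 CPM scale, had a median of 35.4% over the 97 genes, against 31.7% over all 18947 genes tested. Without untrained_WT replicates 3 and 7 the median was 24.5% for the 97 genes and 32.6% for all genes. The spread within groups had a median SD of 1.41 log2 units over the 97 genes, against 0.518 over all genes. The SD within groups was above 1 log2 unit in 61 of the 97 genes (62.9%), against 19.3% of all genes. Averaged over the 97 genes, 28.6% of the variation lay within untrained_WT, 20.1% within trained_WT and 15.5% within untrained_TG, beside 35.8% between groups. Over all genes these means were 24.3% within untrained_WT, 17.4% within trained_WT, 21.9% within untrained_TG and 36.4% between groups. Replicates 3 and 7 of untrained_WT alone carried 15.3% of the variation of the 97 genes on average, against 8.65% over all genes.

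The between-group share passed 50% in 15 of the 97 genes (15.5%), against 30.7% of all genes. The 15 were led by rsph10b at 92.7%, ift74 at 86.9% and foxj1b at 85.2%, followed by tdrd3 at 81.5%, spag1a at 79.6%, piwil2 at 76.4% and dnai1.2 at 74.9%. The others were ift20, ddx46, dnah9, cfap36, tex30, cfap58, ift88 and SPAG9, between 66.0% and 50.8%. At the other end, sycp2l had 1.55% and tekt3 4.42% of their variation between groups.

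**Figure D1:**
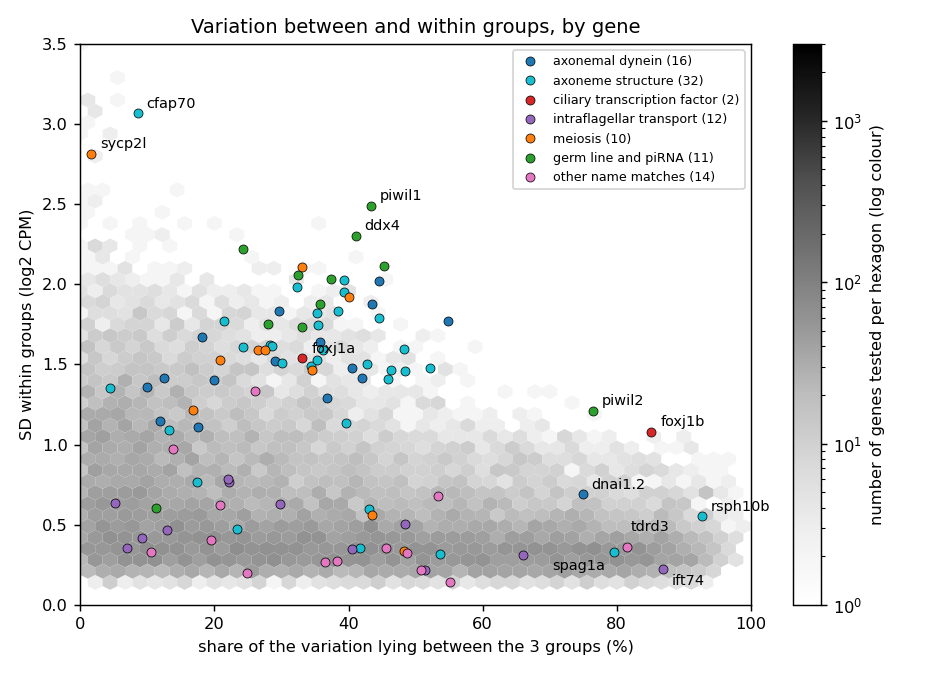
Each coloured point is 1 of the 97 genes tested, with the share of its variation lying between the 3 groups (x axis, %) and its SD within groups (y axis, log2 CPM); grey hexagons count all 18947 genes tested. The germ-line, meiosis and dynein genes lie mostly above 1 log2 unit on the y axis, and foxj1b, rsph10b, ift74, spag1a, tdrd3, piwil2 and dnai1.2 lie at the right.

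The spread within untrained_WT came mostly from the same libraries. The highest of the 21 libraries was untrained_WT replicate 3 in 66 of the 97 genes, against 9.15% of all genes, and replicates 3 and 7 were the 2 highest of their group in 68 of the 97, against 11.8% of all genes. Replicates 3, 6 and 7 were the 3 highest of untrained_WT in 46 of the 97 genes, against 3.85% of all genes. Trained_WT showed the same kind of split, with replicates 4 and 6 as the 2 highest of the group in 62 of the 97 genes, against 7.76% of all genes. These sets of replicates were chosen with the levels of these genes known, so the counts are a description and no test. No untrained_TG library was the highest of the 21 in more than 4 of the 97 genes. In bulk muscle a lower level can mean fewer cells of a type or less RNA in each, and these cannot be told apart here.

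Summed over a class, the germ-line and piRNA genes differed most between libraries of the same wild-type group, with a ratio of highest to lowest library of 19.1 in trained_WT and 36.3 in untrained_WT. In untrained_TG that ratio was 7.10, and the foxj1 pair had a larger one, 9.18. Their sum was 0.70 to 4.98 CPM in untrained_TG, with a median of 1.37 CPM. It was 1.17 to 2.72 CPM in 5 trained_WT libraries but 15.4 CPM in replicate 4 and 22.2 CPM in replicate 6. In untrained_WT it was 135.9 CPM in replicate 3, 74.6 CPM in replicate 7, 18.1 CPM in replicate 6 and 3.74 to 7.70 CPM in the remaining libraries. Untrained_WT replicate 3 thus held 17.5 times, and replicate 7 9.57 times, the mean of the other 5 libraries of its group.

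The axonemal dyneins split the same libraries. Their sum was 10.7 to 20.04 CPM in untrained_TG. It was 3.72 to 6.75 CPM in 5 trained_WT libraries, with 33.6 CPM in replicate 4 and 24.7 CPM in replicate 6. In untrained_WT it was 169.5 CPM in replicate 3 and 108.1 CPM in replicate 7, and 5.98 to 25.8 CPM in the other 5. The untrained_TG sums lay above all 5 of those lower trained_WT sums and within the range of the 5 other untrained_WT sums. These sets of 5 were picked with the levels known, and the order against trained_WT rests on 1 gene, dnai1.2. Without dnai1.2 the dyneins summed to 4.74 to 15.3 CPM in untrained_TG, overlapping 3.30 to 5.43 CPM in those 5 trained_WT libraries. Meiosis genes ran alike, at 5.47 to 11.8 CPM in untrained_TG, 3.29 to 19.0 CPM in trained_WT, and 79.8 and 53.7 CPM in untrained_WT replicates 3 and 7 against 6.64 to 18.2 CPM in the rest of that group. Intraflagellar transport genes varied less, at 56.0 to 69.1 CPM in untrained_TG, 42.3 to 58.6 CPM in trained_WT and 42.9 to 110.6 CPM in untrained_WT, where replicate 3 was again the highest. In TMM-scaled CPM the 17 genes caught by name alone did not share the pattern, and untrained_WT replicates 3 and 7 were the lowest of their group at 184.4 and 157.6 CPM. That order depends on the scaling, since counts over library totals put the same 2 libraries highest in their group.

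**Figure D2:**
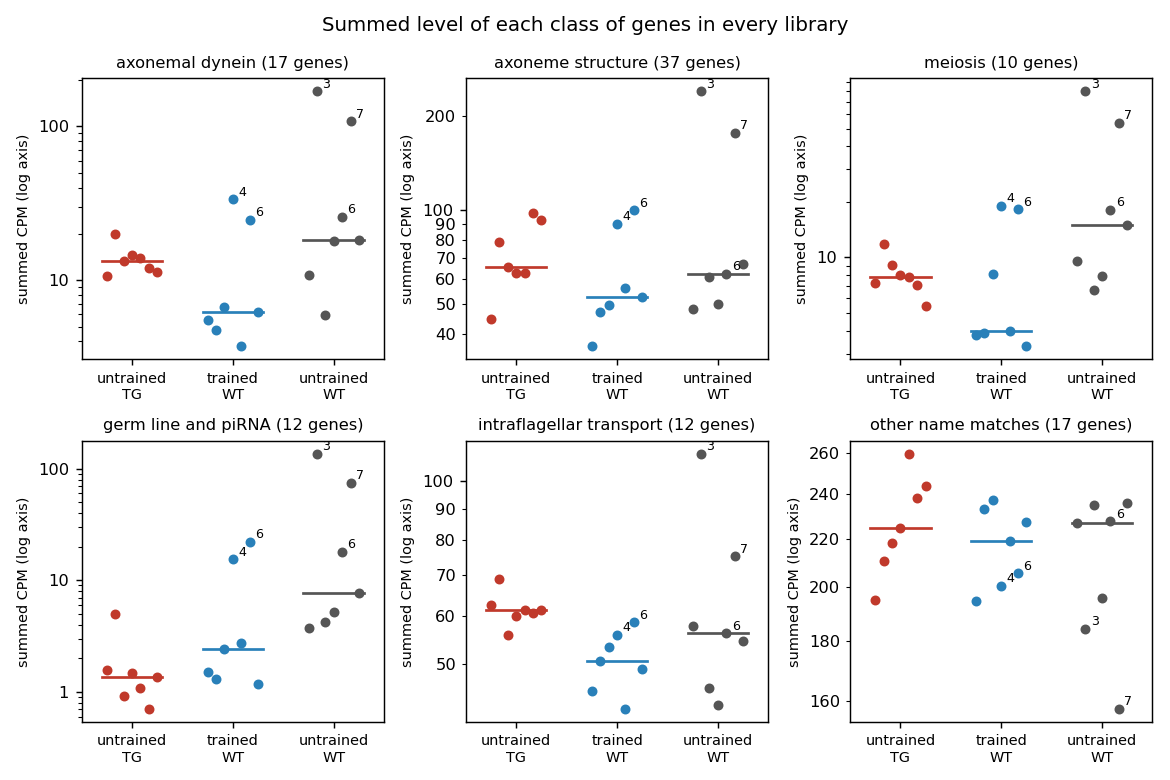
Summed CPM of 6 classes of genes (log axis) in every library of untrained_TG, trained_WT and untrained_WT; points are libraries, bars are medians of 7, and numbers mark untrained_WT replicates 3, 6 and 7 and trained_WT replicates 4 and 6. Replicates 3 and 7 of untrained_WT top 5 of the 6 panels, with 135.9 and 74.6 CPM in the germ-line panel.

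**Figure D3:**
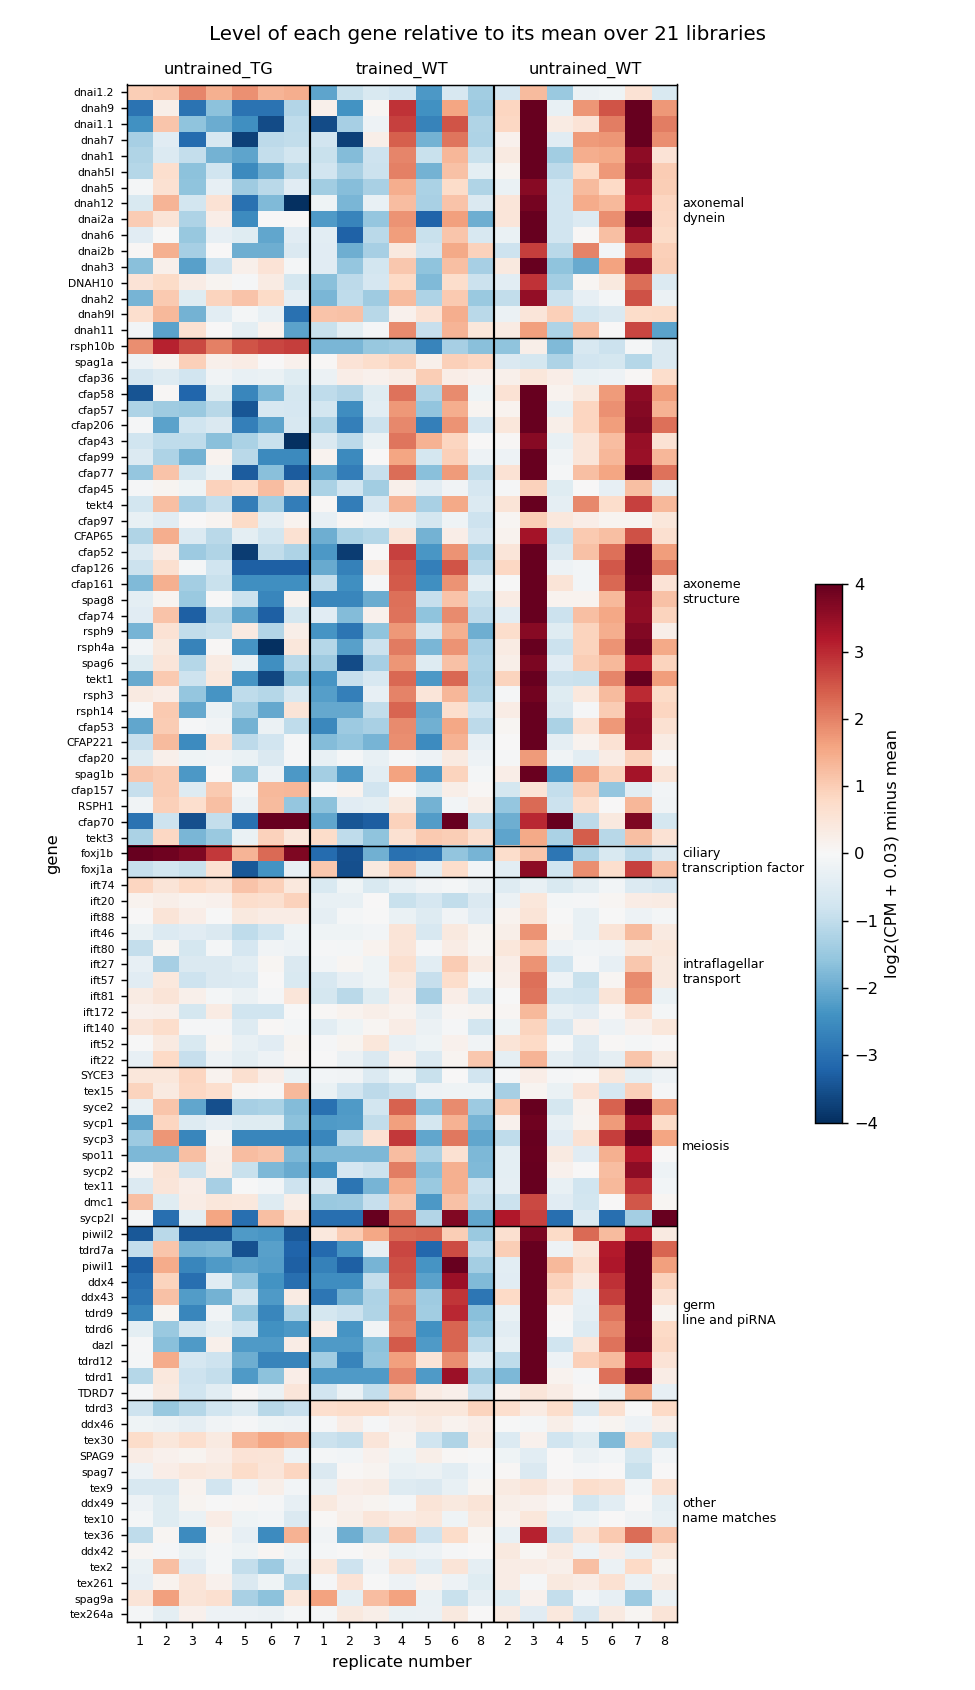
Level of each of the 97 genes tested in each of the 21 libraries, as log2(CPM + 0.03) minus the gene's mean over libraries, with colours limited at 4 log2 units; rows are grouped by class and ordered by between-group share, columns by group. The columns of untrained_WT replicates 3 and 7 and, less strongly, trained_WT replicates 4 and 6 are high in the dynein, axoneme, meiosis and germ-line rows, while rsph10b and foxj1b are high throughout untrained_TG.

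In the joint test of the 3 groups, 72 of the 97 genes were called at an adjusted p under 0.05 (edgeR quasi-likelihood test, Benjamini-Hochberg over all genes), against 48% of all genes. Without untrained_WT replicates 3 and 7, 27 of 97 were called, against 44% of all genes, and 26 of those 27 were among the 72. With no count filter 78 of 106 genes were called, against 34.1% of all genes under that setting.

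Between untrained_TG and untrained_WT, 63 of the 97 genes were called, against 43.4% of all genes. Of the 97, 8 were higher, against 18.3% of all genes, and 55 were lower, against 25.1%. Without untrained_WT replicates 3 and 7 the count was 27 of 97 against 39.2% of all genes, with 10 higher (18.1% of all genes) and 17 lower (21.1% of all genes), and 15 of the 17 were among the 55. The median log2 fold change of the 97 genes was -2.09 with all libraries and -0.72 without these 2, against -0.13 and -0.05 for all genes. With no count filter, 61 of 106 genes were lower, against 20.3% of all genes, and 8 were higher, against 11.7%. The counts with the filter, here and by class below, include the genes that passed only because of untrained_WT, and the filter favours genes high in that group. Adjusted p-values of single genes carry the same limit where the gene passed only because of untrained_WT. Piwil1, piwil2, ddx4, dazl, tdrd1, tdrd9, dnah9, dnai1.1, cfap126, syce2 and sycp3 did so, among others. The groups did not overlap for 4 genes that were higher in untrained_TG, against 7.51% of all genes, namely rsph10b, spag1a, foxj1b and ift74. They did not overlap for 6 genes that were lower, against 8.26% of all genes, namely dnah7, cfap57, cfap43, cfap58, cfap206 and piwil2.

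Between trained_WT and untrained_WT, 4 of the 97 genes were called, against 2.95% of all genes. Only spag1a was higher (2.25% of all genes were), and foxj1b, CFAP65 and rsph10b were lower (0.702% of all genes were). Spag1a was the 1 gene called without untrained_WT replicates 3 and 7, where the share over all genes was 1.36%, with 1.09% higher and 0.271% lower. Scaled by library totals alone, 1 gene was higher, against 1.06% of all genes, and 9 were lower, against 4.89% of all genes. The 3 lower calls were all lost without trained_WT replicate 1, 2 or 5 or without untrained_WT replicate 3, and 1 was left without trained_WT replicate 8 or untrained_WT replicate 7. Without untrained_WT replicate 4 there were 5 lower calls. Shares of all genes for these fits with 1 library left out are not given. Of the 97 genes, spag1a was higher and cfap97 lower in every trained_WT library than in any untrained_WT library, against 0.992% and 0.348% of all genes. This comparison and the one before it share the untrained_WT libraries.

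Between untrained_TG and trained_WT, which uses no untrained_WT library in its means, 20 of the 97 genes were called, against 41.6% of all genes, with 11 higher (19.2% of all genes) and 9 lower (22.5%). With library totals as the scaling, 6 were higher, against 11.5% of all genes, and 9 lower, against 26.1%. The groups did not overlap for 7 higher genes, against 8.22% of all genes, namely dnai1.2, rsph10b, foxj1b, ift74, ift20, ift88 and tex15, nor for tdrd3, which was lower, against 11.5% of all genes. Without untrained_WT replicates 3 and 7 in the fit, which changes the estimate of spread, 28 genes were called against 42.7% of all genes, 11 higher (20.4%) and 17 lower (22.4%).

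**Figure D4:**
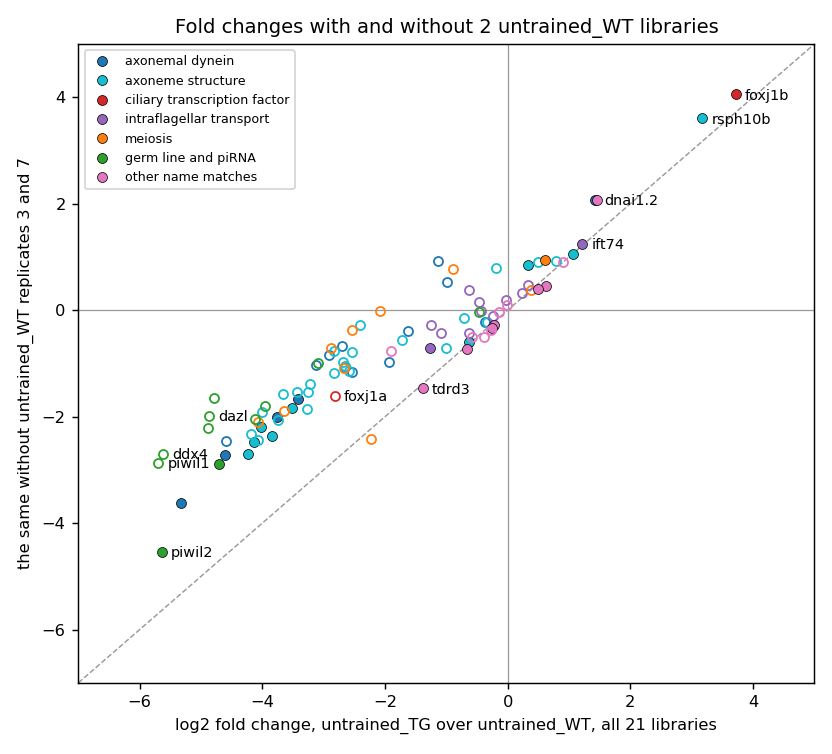
Log2 fold change of untrained_TG over untrained_WT for each of the 97 genes, with all 21 libraries (x axis) and without untrained_WT replicates 3 and 7 (y axis); filled points were called without them, open points were not, and the dashed line marks equal values. Most points below 0 on the x axis lie above the dashed line, nearer to 0, while foxj1b, rsph10b, ift74 and tdrd3 lie close to it.

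The paralogous transcription factors foxj1a and foxj1b, master regulators of motile cilia, did not move together: foxj1b was higher in untrained_TG than in either wild-type group, and foxj1a was lower in untrained_TG than in untrained_WT, a call that was lost when untrained_WT replicates 3 and 7 were both left out. Foxj1b was at 6.99, 35.9 and 64.0 CPM in untrained_TG, 0.212, 0.324 and 0.870 CPM in trained_WT and 0.337, 1.73 and 5.75 CPM in untrained_WT (lowest, median, highest). Every untrained_TG library was above every library of either wild-type group, and the trained_WT libraries overlapped untrained_WT. The means were 30.8 ± 19.5 CPM in untrained_TG, 0.486 ± 0.261 CPM in trained_WT and 2.34 ± 1.96 CPM in untrained_WT (SD, n = 7 each). Its log2 fold change was 3.71 ± 0.55 (SE) for untrained_TG over untrained_WT (edgeR adjusted p = 1.07e-05), and it was 3.26 to 4.09 over 29 alternatives with adjusted p at most 5.43e-05. For untrained_TG over trained_WT it was 5.99 ± 0.62 (edgeR adjusted p = 9.74e-08). For trained_WT over untrained_WT it was -2.27 ± 0.54 (edgeR adjusted p = 0.0234), a call lost in 8 of 29 alternatives, 5 of which left out 1 library (trained_WT replicate 1, 2, 4 or 5, or untrained_WT replicate 3, adjusted p 0.0506 to 0.0707).

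Foxj1a was at 0.0177, 0.241 and 0.729 CPM in untrained_TG (lowest, median, highest), 0.0141, 0.633 and 1.03 CPM in trained_WT and 0.259, 1.15 and 6.03 CPM in untrained_WT, with the groups overlapping. The highest value was untrained_WT replicate 3 and the next was replicate 7 at 3.32 CPM. In the fit its log2 fold change in untrained_TG over untrained_WT was -2.82 ± 0.76 (edgeR adjusted p = 0.00484), and -1.61 and no longer called without replicates 3 and 7 (adjusted p = 0.0793). The call held with any 1 library left out, and limma-voom with sample weights gave an adjusted p of 0.0898. Adjusted p-values ran from 0.000234 to 0.0898 over its alternatives.

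**Figure D5:**
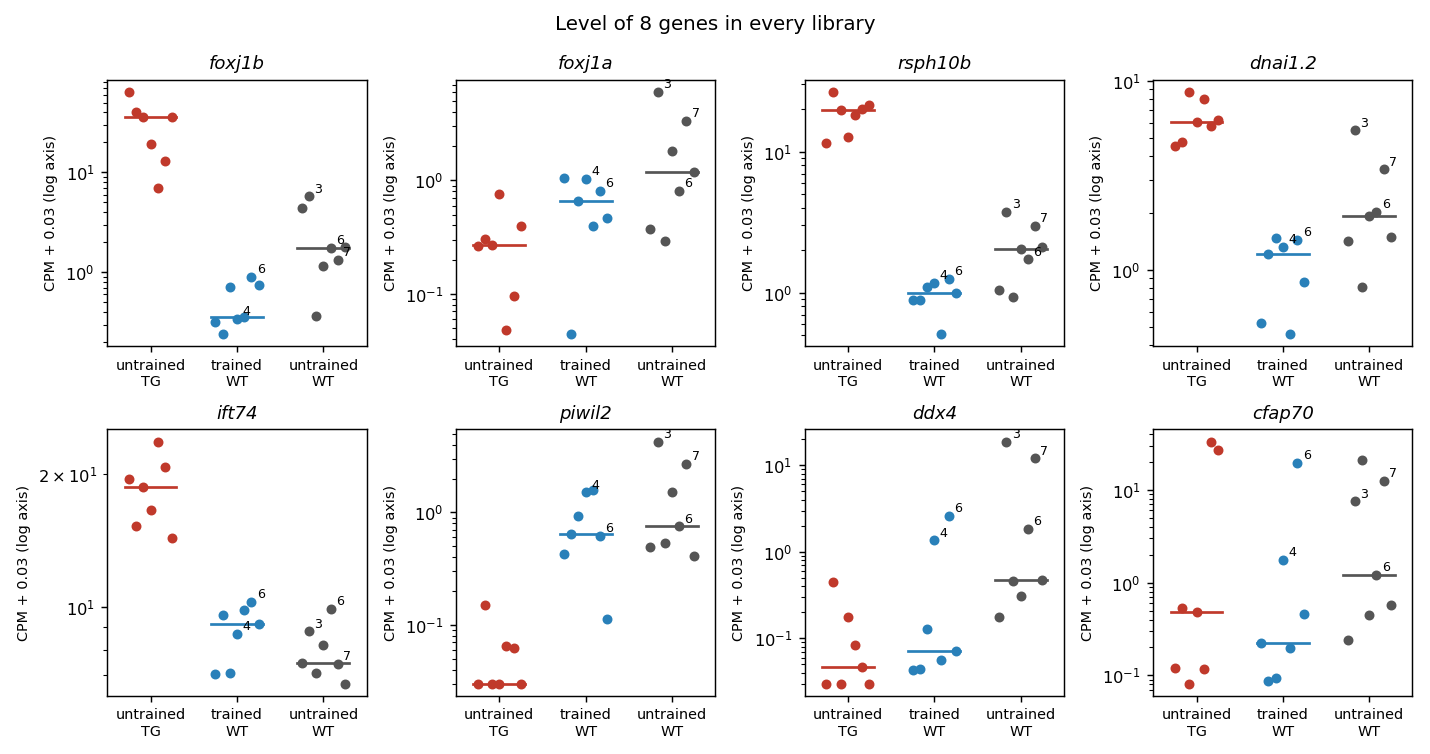
Level of 8 genes, as CPM + 0.03 on a log axis, in every library of untrained_TG, trained_WT and untrained_WT; points are libraries, bars are medians of 7, and numbers mark untrained_WT replicates 3, 6 and 7 and trained_WT replicates 4 and 6. Foxj1b, rsph10b and ift74 are higher in all untrained_TG libraries than in any untrained_WT library, piwil2 is lower in all of them, and foxj1a, ddx4 and cfap70 overlap.

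Among the 16 axonemal dyneins tested, 10 (62.5%) were lower in untrained_TG than in untrained_WT, against 25.1% of all genes, with log2 fold changes of -5.33 to -2.53. Of the 16, 1 was higher, where 18.3% of all genes were. Of the 10, 4 were also lower without untrained_WT replicates 3 and 7, which is 25% of the dyneins tested and near the 21.1% of all genes. Dnah9, an outer-arm heavy chain, was at 0, 0 and 0.241 CPM in untrained_TG (lowest, median, highest), 0.0130, 0.211 and 1.67 CPM in trained_WT and 0.156, 0.753 and 7.43 CPM in untrained_WT. Untrained_TG held 22 counts of it in all, in 3 of 7 libraries, and the groups overlapped only through untrained_TG replicate 2. The log2 fold change for untrained_TG over untrained_WT was -5.33 ± 1.21 (edgeR adjusted p = 0.00111) and -3.62 without the 2 libraries, still called, and with so few counts its size depends on the prior count. Against trained_WT dnah9 was also lower (-2.93 ± 1.13, edgeR adjusted p = 0.0424), but leaving out any of trained_WT replicates 4 and 6 or untrained_TG replicates 1, 3, 4, 5, 6 and 7 ended that call, with adjusted p 0.0575 to 0.182.

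Dnah1, an inner-arm heavy chain, was at 0.124, 0.309 and 0.423 CPM in untrained_TG, 0.169, 0.329 and 2.52 CPM in trained_WT and 0.221, 1.79 and 12.8 CPM in untrained_WT (lowest, median, highest), with a log2 fold change in untrained_TG over untrained_WT of -3.76 ± 0.80 (edgeR adjusted p = 0.000595), and -2.005 without replicates 3 and 7, still called. Dnah7, another inner-arm chain, averaged 0.137 ± 0.097 CPM in untrained_TG, 0.664 ± 0.858 CPM in trained_WT and 3.39 ± 4.53 CPM in untrained_WT (SD, n = 7 each), and every untrained_TG library was below every untrained_WT library. Dnai1.1 and dnai2a, intermediate chains of the outer arm, had fold changes of -4.59 ± 1.22 and -2.71 ± 1.03 in untrained_TG over untrained_WT (log2, edgeR adjusted p = 0.0041 and 0.0382). Neither was called without replicates 3 and 7, where the values were -2.46 and -0.68. The dnai2a call was also lost without any one of untrained_TG replicates 3 to 7, or of untrained_WT replicates 3 and 7, with adjusted p 0.0567 to 0.0973.

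Dnai1.2, the other gene of the dnai1 intermediate chain in the table, was the exception among the dyneins. It was at 4.48, 6.01 and 8.69 CPM in untrained_TG, 0.428, 1.18 and 1.44 CPM in trained_WT and 0.778, 1.89 and 5.43 CPM in untrained_WT (lowest, median, highest). No trained_WT library reached the lowest untrained_TG library, and only untrained_WT replicate 3 did. Its log2 fold change was 2.63 ± 0.37 for untrained_TG over trained_WT (edgeR adjusted p = 5.66e-06). For untrained_TG over untrained_WT it was 1.42 ± 0.35 (edgeR adjusted p = 0.00244), 2.08 without replicates 3 and 7, and 0.76 and not called when libraries were scaled by their totals alone (adjusted p = 0.133, the highest of 29 alternatives). Under that scaling the median log2 fold change of all genes was -0.64, against -0.13 with TMM.

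Of the 32 other axoneme genes tested, 23 (71.9%) were lower in untrained_TG than in untrained_WT, against 25.1% of all genes, and 2 were higher, against 18.3%. Of the 23, 6 were also lower without untrained_WT replicates 3 and 7, or 18.8% of those tested against 21.1% of all genes. Rsph10b, a radial spoke protein gene, had the largest between-group share of the 97 genes. It was at 11.5, 19.8 and 26.5 CPM in untrained_TG, 0.480, 0.960 and 1.23 CPM in trained_WT and 0.895, 2.00 and 3.70 CPM in untrained_WT (lowest, median, highest). Every untrained_TG library was above every wild-type library. On the log2 scale the fold change was 3.17 ± 0.29 for untrained_TG over untrained_WT (edgeR adjusted p = 1.68e-08, at most 6.02e-06 over 29 alternatives) and 4.29 ± 0.31 over trained_WT (edgeR adjusted p = 5.84e-10). The other radial spoke genes did not go that way, and rsph3, rsph4a, rsph9 and rsph14 were lower in untrained_TG than in untrained_WT, with log2 fold changes of -3.26 to -2.66, none of them called without replicates 3 and 7. RSPH1 had a log2 fold change of -0.19 ± 0.54 in the same comparison (edgeR adjusted p = 0.797).

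Rsph10b was lower in trained_WT than in untrained_WT, with a log2 fold change of -1.12 ± 0.28 (edgeR adjusted p = 0.0307). CFAP65, whose protein is needed for sperm flagella in mammals, was lower too, with -2.38 ± 0.61 on the log2 scale (edgeR adjusted p = 0.0347). CFAP65 was at 0.274, 0.503 and 1.59 CPM in trained_WT and 0.610, 2.37 and 11.6 CPM in untrained_WT (lowest, median, highest), and the groups overlapped. The rsph10b call was lost without trained_WT replicate 1, 2, 5 or 8 or untrained_WT replicate 3 or 7, with adjusted p 0.055 to 0.0943, and the CFAP65 call without those libraries or trained_WT replicate 3, with adjusted p 0.0565 to 0.115. In untrained_TG, CFAP65 was at 0.472, 0.773 and 3.18 CPM (lowest, median, highest), lower than untrained_WT with a log2 fold change of -1.72 ± 0.60 (edgeR adjusted p = 0.0236). That call was lost without untrained_TG replicate 4 or 6 or untrained_WT replicate 3 or 7, with adjusted p 0.0501 to 0.0991.

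Spag1a, a factor for the assembly of dynein arms in the cytoplasm, was higher in both untrained_TG and trained_WT than in untrained_WT. It was at 9.64, 12.3 and 21.4 CPM in untrained_TG, 11.5, 18.1 and 21.3 CPM in trained_WT and 4.66, 6.70 and 7.43 CPM in untrained_WT (lowest, median, highest). Neither of these groups overlapped untrained_WT, and they overlapped each other. The log2 fold change was 1.07 ± 0.18 for untrained_TG (edgeR adjusted p = 4.23e-05) and 1.43 ± 0.18 for trained_WT (edgeR adjusted p = 4.93e-05) over untrained_WT. Its paralog spag1b averaged 0.114 ± 0.124 CPM in untrained_TG, 0.127 ± 0.157 CPM in trained_WT and 0.678 ± 0.855 CPM in untrained_WT (SD, n = 7 each), and was not called in either comparison.

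Cfap57, cfap43 and cfap58, all needed for normal flagella, were lower in every untrained_TG library than in any untrained_WT library. Cfap57 was at 0, 0.109 and 0.179 CPM in untrained_TG, 0.0282, 0.211 and 1.05 CPM in trained_WT and 0.234, 0.814 and 6.31 CPM in untrained_WT (lowest, median, highest). For this gene the log2 fold change in untrained_TG over untrained_WT was -4.14 ± 0.87 (edgeR adjusted p = 0.000538) and was -2.48 without replicates 3 and 7, still called. For cfap43 the fold changes were -3.52 ± 0.74 over untrained_WT (edgeR adjusted p = 0.000561) and -2.12 ± 0.71 over trained_WT (edgeR adjusted p = 0.0197), the second lost without trained_WT replicate 4, which held 4.40 CPM (adjusted p = 0.0637, and at most 0.0812 over its alternatives). For cfap58 they were -3.85 ± 0.84 over untrained_WT (edgeR adjusted p = 0.000805) and -1.99 ± 0.80 over trained_WT (edgeR adjusted p = 0.0491). The second of these was lost when any of 10 libraries was left out (trained_WT replicates 4 and 6, untrained_TG replicates 1, 3, 4, 5, 6 and 7, untrained_WT replicates 6 and 8), with adjusted p 0.0513 to 0.15.

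Tekt1 and cfap126, which belong to the doublet microtubules and basal bodies of motile cilia, were among the genes with the largest spread within groups. Tekt1 was at 0.0326, 0.220 and 1.60 CPM in untrained_TG, 0.123, 0.381 and 3.83 CPM in trained_WT and 0.393, 2.49 and 20.3 CPM in untrained_WT (lowest, median, highest). Both of the highest trained_WT values, 3.83 CPM each, were replicates 4 and 6, and the 2 highest untrained_WT values, 20.3 and 18.0 CPM, were replicates 3 and 7. Fold changes in untrained_TG over untrained_WT were -3.67 ± 1.05 for tekt1 and -4.08 ± 1.17 for cfap126 on the log2 scale (edgeR adjusted p = 0.0073 and 0.0072), and neither gene was called without replicates 3 and 7. Cfap36, in contrast, was lower in untrained_TG with an SD within groups of 0.316 log2 units, at 10.2 ± 1.59 CPM against 17.1 ± 4.74 CPM in trained_WT and 15.9 ± 3.84 CPM in untrained_WT (SD, n = 7 each), and it was called with and without these libraries.

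Cfap70, another axoneme protein, had the largest spread of the 97 genes within groups, 3.07 log2 units, and followed other libraries than the rest. It stood at 33.1 and 27.0 CPM in untrained_TG replicates 6 and 7 and at 0.0515 to 0.498 CPM in the other 5. In trained_WT it stood at 19.5 CPM in replicate 6, 1.74 CPM in replicate 4 and 0.0564 to 0.425 CPM elsewhere. In untrained_WT it stood at 21.02 CPM in replicate 4, 12.4 CPM in replicate 7, 7.47 CPM in replicate 3 and 0.208 to 1.18 CPM elsewhere. High libraries thus occurred in all 3 groups, the between-group share was 8.55%, and no comparison with all libraries called it. Without trained_WT replicate 6 the fold change of untrained_TG over trained_WT was 4.27 on the log2 scale and was called.

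The intraflagellar transport genes had levels that varied less, with a median SD within groups of 0.443 log2 units. Ift74, a core component of the transport complex B that binds tubulin with ift81, was at 14.3, 18.7 and 23.7 CPM in untrained_TG, 7.02, 9.13 and 10.3 CPM in trained_WT and 6.68, 7.46 and 9.88 CPM in untrained_WT (lowest, median, highest). Every untrained_TG library was above every wild-type library. On the log2 scale the fold change was 1.21 ± 0.13 over untrained_WT (edgeR adjusted p = 1.71e-07, at most 0.00219 over 29 alternatives) and 1.06 ± 0.13 over trained_WT (edgeR adjusted p = 1.13e-06). Its partner ift81 was not called in any comparison, at 3.24 ± 0.664 CPM in untrained_TG, 2.12 ± 0.942 CPM in trained_WT and 4.99 ± 4.40 CPM in untrained_WT (SD, n = 7 each), where replicates 3 and 7 held 12.7 and 9.67 CPM. Ift20 and ift88, also of complex B, were higher in every untrained_TG library than in any trained_WT library, by 0.97 ± 0.20 and 0.51 ± 0.13 on the log2 scale (edgeR adjusted p = 0.000368 and 0.00298).

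Of the 12 genes, 4 (33.3%) were lower in untrained_TG than in untrained_WT, against 25.1% of all genes. All 4 belong to complex B, namely ift46, ift80, ift57 and ift27, with log2 fold changes of -1.27 to -0.63. Ift46 averaged 3.20 ± 0.629 CPM in untrained_TG, 4.72 ± 1.26 CPM in trained_WT and 7.68 ± 4.41 CPM in untrained_WT (SD, n = 7 each), and it alone of the 4 was called without replicates 3 and 7 (-0.72 on the log2 scale), where 21.1% of all genes were lower. Ift57 had a log2 fold change of -1.24 ± 0.41 (edgeR adjusted p = 0.0178), a call lost without untrained_WT replicate 3 or 7 singly (adjusted p 0.0672 and 0.0567). Ift22, a small GTPase of the same complex, had a between-group share of 5.17% and was not called, and ift140, of complex A, was not called either.

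Among the 10 meiosis genes, 5 were lower in untrained_TG than in untrained_WT, against 25.1% of all genes, and none was higher, against 18.3%. None of the 5 was called without untrained_WT replicates 3 and 7, where 21.1% of all genes were lower. Sycp1, the transverse filament of the synaptonemal complex, was at 0.581, 1.86 and 4.77 CPM in untrained_TG, 0.520, 1.31 and 8.30 CPM in trained_WT and 2.15, 4.46 and 39.6 CPM in untrained_WT (lowest, median, highest). The groups overlapped, and the highest untrained_WT libraries were replicate 3 at 39.6 CPM, replicate 7 at 28.2 CPM and replicate 6 at 8.71 CPM. The log2 fold change of untrained_TG over untrained_WT was -2.67 ± 0.77 (edgeR adjusted p = 0.00757) and was -1.08 without replicates 3 and 7. Sycp2 and sycp3, of the lateral elements, had -2.89 ± 0.88 and -3.64 ± 1.30 (edgeR adjusted p = 0.0107 and 0.0268), and syce2, of the central element, -4.08 ± 1.12 (edgeR adjusted p = 0.00523). Without the 2 libraries these were -0.72, -1.89 and -2.10, and the sycp3 call was also lost without either library singly (adjusted p 0.0669 and 0.0508).

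Spo11, the nuclease that starts meiotic recombination, was at 1.59 CPM in untrained_WT replicate 3 and 0.927 CPM in replicate 7 and at 0.246 CPM or less in each other library. It was at 0 in 3 untrained_TG and 4 trained_WT libraries. Dmc1, the meiotic strand exchange protein, averaged 0.316 ± 0.146 CPM in untrained_TG, 0.220 ± 0.245 CPM in trained_WT and 0.586 ± 0.687 CPM in untrained_WT (SD, n = 7 each). Neither gene was called in any comparison. SYCE3, also of the central element, and tex15, which acts in the mouse male germ line, were instead higher in untrained_TG than in trained_WT, by 0.74 ± 0.19 and 1.17 ± 0.33 on the log2 scale (edgeR adjusted p = 0.0032 and 0.00705). Both calls were lost with library totals as the scaling (adjusted p = 0.074 and 0.0765, the highest of their alternatives).

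Sycp2l, a relative of sycp2, had the second largest spread within groups, 2.82 log2 units, with its high libraries in other places. It was at 0 to 0.684 CPM in untrained_TG. In trained_WT replicates 3, 6 and 4 held 3.83, 3.11 and 1.13 CPM and the others at most 0.0778 CPM. In untrained_WT replicates 8, 2 and 3 held 5.08, 2.21 and 1.57 CPM and the others at most 0.135 CPM, so replicate 7 was not among its high libraries.

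Of the 11 germ-line and piRNA genes tested, 10 (90.9%) were lower in untrained_TG than in untrained_WT, against 25.1% of all genes, with log2 fold changes of -5.69 to -3.09. Without untrained_WT replicates 3 and 7, 2 of the 10 were also lower, piwil2 and tdrd7a, or 18.2% of those tested, near the 21.1% of all genes. Piwil2, one of the pair of Piwi proteins in zebrafish, was at 0, 0 and 0.121 CPM in untrained_TG, 0.0822, 0.606 and 1.54 CPM in trained_WT and 0.377, 0.724 and 4.23 CPM in untrained_WT (lowest, median, highest). Untrained_TG held 12 counts of piwil2 in all, in 3 of 7 libraries, and every untrained_TG library was below every untrained_WT library. The gene passed the count filter only because of untrained_WT. The log2 fold change was -5.63 ± 0.89 over untrained_WT (edgeR adjusted p = 2.23e-05, at most 0.00199 over 29 alternatives) and -4.54 without replicates 3 and 7. Against trained_WT it was -4.73 ± 0.87 (edgeR adjusted p = 0.000128). Sizes of this order rest on a few counts in untrained_TG and depend on the prior count.

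Piwil1, the other Piwi gene, was at 0, 0.0298 and 0.770 CPM in untrained_TG, 0, 0.0487 and 5.56 CPM in trained_WT and 0.183, 0.859 and 28.2 CPM in untrained_WT (lowest, median, highest). Without its replicate 2, untrained_TG reached at most 0.0355 CPM. Ddx4 (vasa), the helicase that marks germ cells, was at 0, 0.0163 and 0.423 CPM in untrained_TG, 0.0137, 0.0411 and 2.57 CPM in trained_WT and 0.147, 0.437 and 18.8 CPM in untrained_WT. In both genes untrained_WT replicate 3 was the highest of the 21 libraries, replicate 7 the second, and the highest trained_WT library was replicate 6. Like piwil2, both passed the count filter only because of untrained_WT, the group in which they were high. Log2 fold changes in untrained_TG over untrained_WT were -5.69 ± 1.56 for piwil1 (edgeR adjusted p = 0.00536) and -5.62 ± 1.46 for ddx4 (edgeR adjusted p = 0.00342), and both calls ended without replicates 3 and 7, at -2.87 and -2.69.

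Dazl, an RNA-binding protein of germ cells, averaged 0.058 ± 0.068 CPM in untrained_TG, 0.214 ± 0.347 CPM in trained_WT and 1.68 ± 2.73 CPM in untrained_WT (SD, n = 7 each), where replicates 3 and 7 held 7.30 and 3.27 CPM. Its log2 fold change in untrained_TG over untrained_WT was -4.86 ± 1.42 (edgeR adjusted p = 0.00816), and -1.98 and not called without them. Tudor-domain genes ran alike. Tdrd7a was at 0.0355, 0.172 and 1.54 CPM in untrained_TG, 0.0519, 0.329 and 4.61 CPM in trained_WT and 0.597, 3.65 and 34.1 CPM in untrained_WT (lowest, median, highest), with a log2 fold change over untrained_WT of -4.71 ± 1.18 (edgeR adjusted p = 0.00264) and -2.88, still called, without the 2 libraries. Tdrd1, tdrd6 and tdrd9 were lower, with log2 fold changes of -4.78 ± 1.48, -3.96 ± 0.97 and -4.89 ± 1.27 (edgeR adjusted p = 0.0121, 0.00209 and 0.00347). Without the 2 libraries these were -1.66, -1.80 and -2.22, and none was called. The gene listed as TDRD7 (1 of many) had a between-group share of 11.4% and was not called. No germ-line gene was called between trained_WT and untrained_WT, where the class had a median log2 fold change of -2.59 with all libraries and -0.02 without replicates 3 and 7. That second fit kept trained_WT replicates 4 and 6, whose class sums were 15.4 and 22.2 CPM. The remaining trained_WT libraries summed to 1.17 to 2.72 CPM, below the 3.74 to 18.1 CPM of the remaining untrained_WT libraries. The libraries left out on each side were set apart because they were high in these genes. The order of the remaining ones is thus a description and no test of training.

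The 14 tested genes caught by name alone had a median SD within groups of 0.341 log2 units, against 2.04 for the germ-line genes. Tdrd3, a tudor-domain reader of methylated arginine outside the piRNA pathway, was at 5.19, 7.87 and 10.5 CPM in untrained_TG, 19.6, 23.9 and 27.7 CPM in trained_WT and 10.1, 23.6 and 26.1 CPM in untrained_WT (lowest, median, highest). It did not overlap between untrained_TG and trained_WT, and it overlapped untrained_WT through replicate 5. On the log2 scale the fold change was -1.38 ± 0.19 over untrained_WT (edgeR adjusted p = 3.03e-06) and -1.58 ± 0.19 over trained_WT (edgeR adjusted p = 5.9e-07), with adjusted p at most 0.000215 and 7.22e-05 over 29 alternatives each.

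Spag7, SPAG9 (a scaffold of JNK signalling) and tex30 were higher in untrained_TG than in untrained_WT, by 0.62 ± 0.17, 0.50 ± 0.12 and 1.46 ± 0.44 on the log2 scale (edgeR adjusted p = 0.0051, 0.00246 and 0.00982). They averaged 94.8 ± 21.6, 45.9 ± 7.64 and 0.529 ± 0.193 CPM in untrained_TG and 61.7 ± 13.8, 32.5 ± 4.96 and 0.189 ± 0.121 CPM in untrained_WT, in that order (SD, n = 7 each). All of these calls held without replicates 3 and 7, and all were lost with library totals as the scaling, under which log2 fold changes of all genes shifted as given above. Tex36 and spag9a, the most variable of these 14 genes by SD within groups, were not called in any comparison.

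Genes of the same pathways outside the name rule were taken from lists chosen with earlier results known. Of 62 other motile cilia genes tested, 51 (82.3%) were lower and 1 higher in untrained_TG than in untrained_WT, where 25.1% of all genes were lower and 18.3% higher. Without replicates 3 and 7, 7 (11.3%) were lower and 2 higher, where 21.1% of all genes were lower and 18.1% higher. The same shares of all genes apply to the other lists below. The 1 higher gene with all libraries was stk36, a kinase linked to the cilia central pair, at 3.90, 8.85 and 26.1 CPM in untrained_TG, 1.21, 2.38 and 3.95 CPM in trained_WT and 3.31, 3.67 and 6.75 CPM in untrained_WT (lowest, median, highest), with a log2 fold change over untrained_WT of 1.52 ± 0.36 (edgeR adjusted p = 0.00164). DNAAF5, a dynein assembly factor, was lower in untrained_TG than in untrained_WT (-1.98 ± 0.42, edgeR adjusted p = 0.000668) and than in trained_WT (-1.93 ± 0.42, edgeR adjusted p = 0.00082). Of 35 ciliary base and BBSome genes, 9 (25.7%) were lower, near the share of all genes, and none higher, and without the 2 libraries 3 were lower (8.57%) and 3 higher. The 9 included kif3b, a motor of intraflagellar transport, at 1.34, 2.202 and 2.91 CPM in untrained_TG, 2.4, 3.35 and 5.08 CPM in trained_WT and 4.10, 5.75 and 7.54 CPM in untrained_WT (lowest, median, highest). For this gene the log2 fold change in untrained_TG over untrained_WT was -1.42 ± 0.19 (edgeR adjusted p = 3.41e-06). Kif17, another ciliary motor, had -3.76 ± 0.78 in the same comparison (edgeR adjusted p = 0.000479), with 3.87 CPM in untrained_WT replicate 3 and 2.35 CPM in replicate 7.

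Of 20 other meiosis genes, 8 (40.0%) were lower and 1 higher in untrained_TG than in untrained_WT, and 3 (15.0%) were lower and 3 higher without replicates 3 and 7. The higher gene with all libraries was YTHDC2. Mnd1, a partner in meiotic strand exchange, was at 0.506, 1.19 and 1.87 CPM in untrained_TG, 2.00, 4.21 and 7.99 CPM in trained_WT and 1.71, 3.45 and 10.3 CPM in untrained_WT (lowest, median, highest). Its log2 fold change in untrained_TG over untrained_WT was -1.95 ± 0.36 (edgeR adjusted p = 0.000146), and that of prdm9, which marks recombination sites in mammals, was -0.84 ± 0.16 (edgeR adjusted p = 0.000249). Of 14 other germ-line and piRNA genes, 8 (57.1%) were lower and 3 higher (tdrkh, henmt1 and hook2), and 2 (14.3%) lower and 3 higher without the 2 libraries. Tdrkh, a tudor-domain protein that docks piRNA processing at mitochondria, was higher in every untrained_TG library, at 12.8, 17.1 and 21.5 CPM, against 5.59, 7.44 and 10.2 CPM in trained_WT and 4.76, 6.94 and 9.73 CPM in untrained_WT (lowest, median, highest). Its log2 fold change over untrained_WT was 1.27 ± 0.18 (edgeR adjusted p = 7.35e-06), while celf1, an RNA-binding protein, had -0.74 ± 0.15 (edgeR adjusted p = 0.000518). Between trained_WT and untrained_WT these 4 lists held 2 calls, or 1.53% of their genes tested against 2.95% of all genes. They were kif3b (-0.71 ± 0.19, edgeR adjusted p = 0.0408) and meiob, a meiotic recombination gene (-1.34 ± 0.36, edgeR adjusted p = 0.0477), both lower. Without replicates 3 and 7 the lists held none.

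Summed gonadal somatic markers and summed markers of dividing cells were also highest in untrained_WT replicates 3 and 7. The 18 gonadal somatic markers summed to 6.25 to 29.6 CPM in untrained_TG, 10.3 to 29.2 CPM in trained_WT and 13.6 to 101.3 CPM in untrained_WT. Untrained_WT replicate 3 held 101.3 CPM and replicate 7 56.6 CPM, against 13.6 to 34.7 CPM in the other 5, where replicate 6 held 16.2 CPM. In trained_WT replicate 3 was the highest at 29.2 CPM, with 26.5 CPM in replicate 6 and 13.9 CPM in replicate 4. Of the 12 tested, 6 had their highest library in untrained_WT replicate 3, against 9.15% of all genes. Replicates 3 and 7 were the 2 highest of untrained_WT in 6 of the 12 (50%), against 11.8% of all genes. Insl3, a hormone of testicular Leydig cells, was at 41.5 CPM in untrained_WT replicate 3, 13.2 CPM in replicate 7 and 2.73 CPM in replicate 6, against at most 0.362 CPM in untrained_TG, at most 1.83 CPM in trained_WT and at most 0.844 CPM in the remaining untrained_WT libraries. Dmrt1, a factor of testis development, was at 9.29 and 4.26 CPM in replicates 3 and 7, and its highest value elsewhere was 1.84 CPM in trained_WT replicate 6. The 22 cycling cell markers summed to 22.0 to 32.4 CPM in untrained_TG, 23.4 to 52.9 CPM in trained_WT, and 176.5 and 138.8 CPM in untrained_WT replicates 3 and 7 against 28.4 to 58.2 CPM in the other 5. The part of such cells in the differences above was not tested.

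The sum of the oocyte markers was also higher in untrained_WT replicates 3 and 7 than in the other 5, but was highest in untrained_TG. Of the 7 oocyte markers tested, 2 (28.6%) had replicates 3 and 7 as the 2 highest of untrained_WT, against 11.8% of all genes. Ccnb2 is on both this list and that of cycling cells. The 21 oocyte markers summed to 22.3 to 39.3 CPM in untrained_TG. In trained_WT they summed to 2.76 CPM in replicate 4 and 3.03 CPM in replicate 6, against 2.03 to 2.34 CPM in the other 5, and in untrained_WT to 5.94 CPM in replicate 3 and 4.20 CPM in replicate 7, against 1.61 to 2.5 CPM in the other 5. Of this list, 73.3% of the sum over all libraries was the egg-coat gene zp3d.1, zp2.1 was at 0 in all libraries, and gdf9, a growth factor of oocytes, was at 0.253 CPM or less in each library. Zp3d.1 was at 18.0 to 32.6 CPM in untrained_TG, 0.389 to 1.04 CPM in trained_WT and 0.351 to 0.734 CPM in untrained_WT. Sperm and spermatid markers followed untrained_WT replicates 3 and 7 in most genes but not in their sum. Of the 12 tested, 6 had their highest library in untrained_WT replicate 3, and 7 (58.3%) had replicates 3 and 7 as the 2 highest of the group, against 11.8% of all genes. The sum of all 13 was dominated by tuba8l2, a tubulin with 97.9% of it. That gene was at 414.0 and 329.4 CPM in untrained_WT replicates 3 and 7 and higher in the other 5. Over library totals instead, replicate 7 was not below all of those 5. Tsga10, a protein of the sperm tail, was highest in replicates 3 and 7, at 8.26 and 6.30 CPM. Replicates 3 and 7 were the 2 highest of untrained_WT in 3 of 18 kidney tubule markers tested (16.7%) and 3 of 17 nerve and spinal cord markers (17.6%), against the same 11.8% of all genes. Kidney tubule markers, which include cilia-bearing epithelium, summed to 134.4 to 320.9 CPM in untrained_TG, 17.2 to 204.5 CPM in trained_WT and 27.4 to 394.0 CPM in untrained_WT, where replicate 5 was the highest. Nerve and spinal cord markers summed to 314.9 to 445.4 CPM in untrained_TG, 243.5 to 505.4 CPM in trained_WT and 255.5 to 354.7 CPM in untrained_WT. The part of these tissues in the results was not tested either.

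In the authors' deposited table for untrained_TG against untrained_WT, 70 of 104 of the genes with an adjusted p were under 0.05, 8 of them higher and 62 lower, against 38.0% of all genes in that table. In the authors' deposited table for trained_WT against untrained_WT, 17 of 99 were under 0.05, 1 higher and 16 lower, against 6.54% of all genes in that table. The DESeq2 fit made here called the same numbers of these genes in each direction. In that fit 16.1% of all genes were higher and 21.7% lower for untrained_TG over untrained_WT. For trained_WT over untrained_WT, 3.84% of all genes were higher and 3.06% lower.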

How the data were processed

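Bulk RNA-seq of zebrafish muscle was analysed from the deposited table of read counts per gene, which per the submitters' processing notes came from STAR 2.4.0i and HTSeq 0.9.1 on GRCz10. Which gene annotation was used, and whether counting took strand into account, is not given in the sources used here. The authors' deposited tables of log2 fold changes and p-values, with DESeq2 named in the submitters' processing notes, were used only for the counts credited to them. The labels describe 24 samples; untrained_WT 1, trained_WT 7 and untrained_TG 8 are not analysed here, which leaves 21 libraries. The members and lists were chosen with earlier results of these data known, and ddx42, ddx46, ddx47 and ddx49 were moved to the genes caught by name alone after their names were seen.

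Counts were filtered with filterByExpr, which kept 18947 genes, scaled with TMM and fitted over all genes with group as the only term by edgeR 4.0.16 (glmQLFit, glmQLFTest) in R 4.3.3, with limma 3.58.1. Adjusted p-values are Benjamini-Hochberg values over all genes tested, called under 0.05, and the SE is the log2 fold change over the square root of F. The biological coefficient of variation was 49.5%. Shares of variation used log2 CPM with a prior count of 2. Library sizes leave out the summary lines without a gene, in which reads on no feature were 5.02% to 10.0%, reads not unique 5.65% to 10.8% and ambiguous reads 0.880% to 2.00%. Replicates of a group differed by more than sampling noise in every pair of libraries. Named genes were foxj1a, foxj1b, ddx4, dazl, piwil1, piwil2, sycp1, sycp2, sycp3, dmc1 and spo11; per class, the 3 with the smallest joint p and the 3 with the largest SD within groups; per comparison, the 5 highest and 5 lowest called fold changes; and per pathway list, the 2 with the smallest joint p. Other genes named in the text were chosen after their values were seen. Depth intervals and limits cover counting error only, since reads without molecular identifiers are not independent molecules. Genes that share reads with a close copy, such as the dnai1 pair, are uncertain. The test was also run on simulated data in which each gene varied independently. That run does not cover libraries that are high in many genes at once. Alternatives were DESeq2 1.42.0, RLE scaling, library totals, limma-voom with sample weights, other filters, a replicate block, other measures of the share, untrained_WT replicates 3 and 7 left out, and each library left out. A search for promoter motifs was not run, because no promoter sequences were at hand.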

Additional observations from a re-analysis of the deposited data

Results flagged for a closer look

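Dixon's criterion was applied on a log scale to 159 groups of 7 values, made of class sums and named genes within 1 group each. In 6 of these groups (3.77%) a library lay far from the other 6, where chance gives about 1 in 20 groups. Levels below are plain CPM, and a flag at 0 CPM depends on the offset used before taking logs. The summed germ-line and piRNA level was 4.98 CPM in untrained_TG replicate 2, against 0.701 to 1.56 CPM in the other untrained_TG libraries. Piwil1 was at 0.770 CPM in the same library, against 0 to 0.0355 CPM in the others. Foxj1a was at 0.0141 CPM in trained_WT replicate 2, against 0.363 to 1.03 CPM in the other trained_WT libraries. Rsph10b was at 0.480 CPM in trained_WT replicate 5, against 0.860 to 1.23 CPM. Cfap57 was at 0 CPM in untrained_TG replicate 5, against 0.0859 to 0.179 CPM, and cfap43 was at 0 CPM in untrained_TG replicate 7, against 0.283 to 0.545 CPM.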

How the results depend on the processing

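The 72 genes called jointly became 38 with limma-voom and sample weights, 28 with a replicate block and 27 without untrained_WT replicates 3 and 7, where 50.2%, 40.6% and 44% of all genes were called. Leaving out 1 library gave 47 to 76, with 47 without untrained_WT replicate 3. For fits with 1 library left out, here and below, the share of all genes called is not given. Whether such changes in count are particular to these genes is therefore not shown. For untrained_TG against untrained_WT the 63 calls became 41 with limma-voom, 31 with the replicate block and 27 without both libraries (45.2%, 38.4% and 39.2% of all genes), and leaving out 1 library gave 51 to 68. For trained_WT against untrained_WT the 4 calls became 17 of 99 with DESeq2, 10 of 97 with library totals and 7 of 79 with a mean of at least 50 counts. Under these settings 6.9%, 5.95% and 4.99% of all genes were called. With DESeq2, 1 of the 17 was higher and 16 were lower, where 3.84% of all genes were higher and 3.06% lower. The replicate block and the fit without both libraries each left 1 call, against 1.95% and 1.36% of all genes. Leaving out 1 library gave 1 to 6. For untrained_TG against trained_WT the 20 calls were 17 to 23 with 1 library left out and 17 with the replicate block, where 37.6% of all genes were called. The median between-group share of 35.4% was 29.2% to 40.3% with 1 library left out and 39.6% with the block. Of 3987 values of single genes under an alternative, 3763 kept direction and side of the threshold, 61 changed sign without being called in either fit, 119 lost the call, 44 gained one, and 0 changed sign while called. Library totals moved the median log2 fold change of all genes from -0.13 to -0.64 for untrained_TG over untrained_WT, and the calls from 8 higher and 55 lower to 4 higher (8.12% of all genes) and 72 lower (43% of all genes). The cause of these changes was not tested.

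Same-numbered libraries of different groups showed no general correlation of deviations, which was -0.364 to 0.397 over 18 pairs, with 4 over 0.1. Of 21 libraries, 1 correlated best with its own number. The labels do not say what a number marks, so whether same-numbered libraries share a batch cannot be told here. Genes with few counts in untrained_TG limit the precision of their fold changes.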

Other observations

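Every marker list held calls between untrained_TG and untrained_WT, and only those of the oocyte markers are described here. Of the 21 oocyte markers, 7 passed the count filter, which favours genes that are high in some group, and the others were not tested. Of these 7, 4 were higher and none lower in untrained_TG than in untrained_WT, with and without untrained_WT replicates 3 and 7, where 18.3% and 18.1% of all genes were higher. Zp3d.1, an egg-coat gene, had a log2 fold change of 5.58 ± 0.24 over untrained_WT (edgeR adjusted p = 3.98e-13) and of 5.12 ± 0.24 over trained_WT (edgeR adjusted p = 1.29e-12). Figla, a transcription factor of early oocytes, was at 1.49, 2.23 and 4.00 CPM in untrained_TG, 0.130, 0.151 and 0.359 CPM in trained_WT and 0, 0.0388 and 0.135 CPM in untrained_WT (lowest, median, highest). Every untrained_TG library was above every wild-type library in both genes. The log2 fold change of figla over untrained_WT was 5.46 ± 0.56 (edgeR adjusted p = 7.16e-08). Both genes were chosen after their values were seen.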
